A study of Homo sapiens with 2 samples.

Results

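The genes described here encode proteoglycans of the extracellular matrix and proteins that make or anchor hyaluronan, and they number 10 of the 36601 genes in the count tables. They are LUM, DCN, BGN, FMOD, OGN and ASPN, which encode small leucine-rich repeat proteins, VCAN, which encodes the large hyaluronan-binding proteoglycan versican, HAPLN1, which encodes a link protein, HAS2, which encodes a hyaluronan synthase, and HSPG2, which encodes the basement membrane proteoglycan perlecan. The members were chosen by gene symbol, with earlier readouts of the same organoids in view, among them the level of LUM in mesenchymal clusters. LUM is therefore given as a description with its test results left out, and the p-values of the other 9 genes are not independent evidence for the choice. All 10 genes passed the filter on low counts.

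UMI counts, in which each unique molecular identifier stands for 1 captured RNA molecule, were obtained from 2 blood-generating heart-forming organoids (BG-HFOs) on day 14, named 32.7 and 33.10. Both were made from the human embryonic stem cell line hES3 NKX2.5-eGFP, which carries a green fluorescent reporter for the cardiac gene NKX2.5. Stem cell aggregates were embedded in Matrigel, and WNT signalling was modulated in a biphasic manner while cytokines and growth factors that favour blood and endothelium were given. Each organoid was dissociated on its own and gave 1 library, so that both groups of values share 1 condition and 1 cell line, and levels were compared between cell classes with the organoid as the replicate (n = 2). In the text, a pair of values gives organoid 32.7 first and organoid 33.10 second.

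Hyaluronan is a long sugar chain that HAS enzymes extrude from the cell surface. Versican binds to this chain, and link proteins such as HAPLN1 lock the complex. In the embryonic heart this hydrated matrix forms the cardiac jelly between myocardium and endocardium and fills the cushions from which valves develop. Small leucine-rich proteoglycans bind fibrillar collagen and are typical products of fibroblasts, whereas perlecan carries heparan sulfate chains in basement membranes, including those beneath endothelium.

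Several of the genes are neighbours in the genome (GRCh38, GENCODE annotation, coordinates of whole genes with introns and UTRs). LUM (chr12:91102629-91111494) and DCN (chr12:91140484-91183217) lie 28989 bases apart on the minus strand. VCAN (chr5:83471618-83582303, plus strand) and HAPLN1 (chr5:83637805-83720855, minus strand) lie 55501 bases apart. OGN (chr9:92383268-92404696) and ASPN (chr9:92456205-92482506) are on the minus strand inside the span of CENPP (chr9:92325953-92620529, plus strand), a centromere protein gene. BGN lies at chrX:153494980-153509546, FMOD at chr1:203340628-203351758 and HSPG2 at chr1:21822244-21937310.

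Upstream sequences are shown for HAPLN1 and HSPG2, the members that were highest in endothelium, for VCAN, the neighbour of HAPLN1 that was low there, and for BGN, which differed between endothelial classes. They are the 250 bases before the start of the gene in RefSeq (GRCh38.p14), written 5′ to 3′ along the strand of the gene, and for VCAN the 124 bases of these that precede the first GENCODE exon. Capitals mark the GC box letters GGGCGG on either strand, where matches may overlap.
HAPLN1: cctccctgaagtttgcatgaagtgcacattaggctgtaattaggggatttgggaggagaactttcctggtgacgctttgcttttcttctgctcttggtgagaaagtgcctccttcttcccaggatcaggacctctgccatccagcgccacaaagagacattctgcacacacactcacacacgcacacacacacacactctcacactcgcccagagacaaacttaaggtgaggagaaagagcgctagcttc
HSPG2: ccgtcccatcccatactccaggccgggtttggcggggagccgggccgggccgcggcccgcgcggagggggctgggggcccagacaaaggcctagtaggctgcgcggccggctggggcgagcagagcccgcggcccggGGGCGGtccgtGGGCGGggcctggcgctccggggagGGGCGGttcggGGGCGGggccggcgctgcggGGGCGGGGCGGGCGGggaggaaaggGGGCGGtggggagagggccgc
VCAN: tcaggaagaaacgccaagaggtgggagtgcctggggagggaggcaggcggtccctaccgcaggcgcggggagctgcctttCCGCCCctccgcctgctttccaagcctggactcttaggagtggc
BGN: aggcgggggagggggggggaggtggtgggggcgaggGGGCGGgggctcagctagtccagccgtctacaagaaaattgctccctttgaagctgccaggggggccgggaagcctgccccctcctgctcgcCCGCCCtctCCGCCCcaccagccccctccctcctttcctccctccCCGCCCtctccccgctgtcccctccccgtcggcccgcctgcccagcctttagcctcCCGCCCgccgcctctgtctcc
The windows are chr5:83720856-83721105 (minus strand) for HAPLN1, chr1:21937311-21937560 (minus strand) for HSPG2, chr5:83471494-83471617 (plus strand) for VCAN and chrX:153494730-153494979 (plus strand) for BGN. HSPG2 had 8 matches to GGGCGG and a G and C content of 82.8%, BGN 5 matches and 74%, VCAN 1 match and 66.9%, and HAPLN1 0 matches and 50.8%. Among the upstream windows of all 35116 RefSeq entries in the promoter set used here, 42.6% held these letters and the median G and C content was 58%. The letters TATAAA (10.7% of all windows), AGATAA (9.17%) and CCGGAAG (8.52%), searched on both strands, were found in none of the 4 sequences. Of the members whose windows are not printed, FMOD held TATAAA and AGATAA, OGN held TATAAA and ASPN held none of these letters. This promoter set held an entry for 7 of the 10 genes and none for LUM, DCN and HAS2.

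Cells were placed in classes by the raw UMIs of marker genes, none of which is a member. Mesenchyme required at least 3 UMIs of PDGFRA, PDGFRB, PRRX1, TWIST1 and TCF21 together and at least 10 of the fibrillar collagens COL1A1, COL1A2 and COL3A1, and endothelium, cardiomyocytes (CMs), endoderm and blood were gated in the same manner. Of 14204 and 18021 cells with at least 2000 UMIs, mesenchyme held 2329 and 2756, endothelium 2740 and 2744, CMs 1228 and 1417, endoderm 83 and 15 and blood 2030 and 3658. No gate was passed by 28.5% and 27.1% of the cells, whereas 12.3% and 14.1% passed more than 1 gate and were left out. All 22 genes set aside to check the gates, such as POSTN for mesenchyme, KDR for endothelium, MYL7 for CMs, APOA1 for endoderm and PTPRC for blood, were highest in their own class in both organoids. The libraries held 191152562 and 233818881 UMIs and shared 100 barcodes. For each class in 1 organoid the UMIs were summed, and a level (CPM) is the number from 1 gene in every 1000000 of that sum, and the part that RNA released from other cells had in the levels was not tested except by removing 10% of the library profile.

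**Figure D1:**
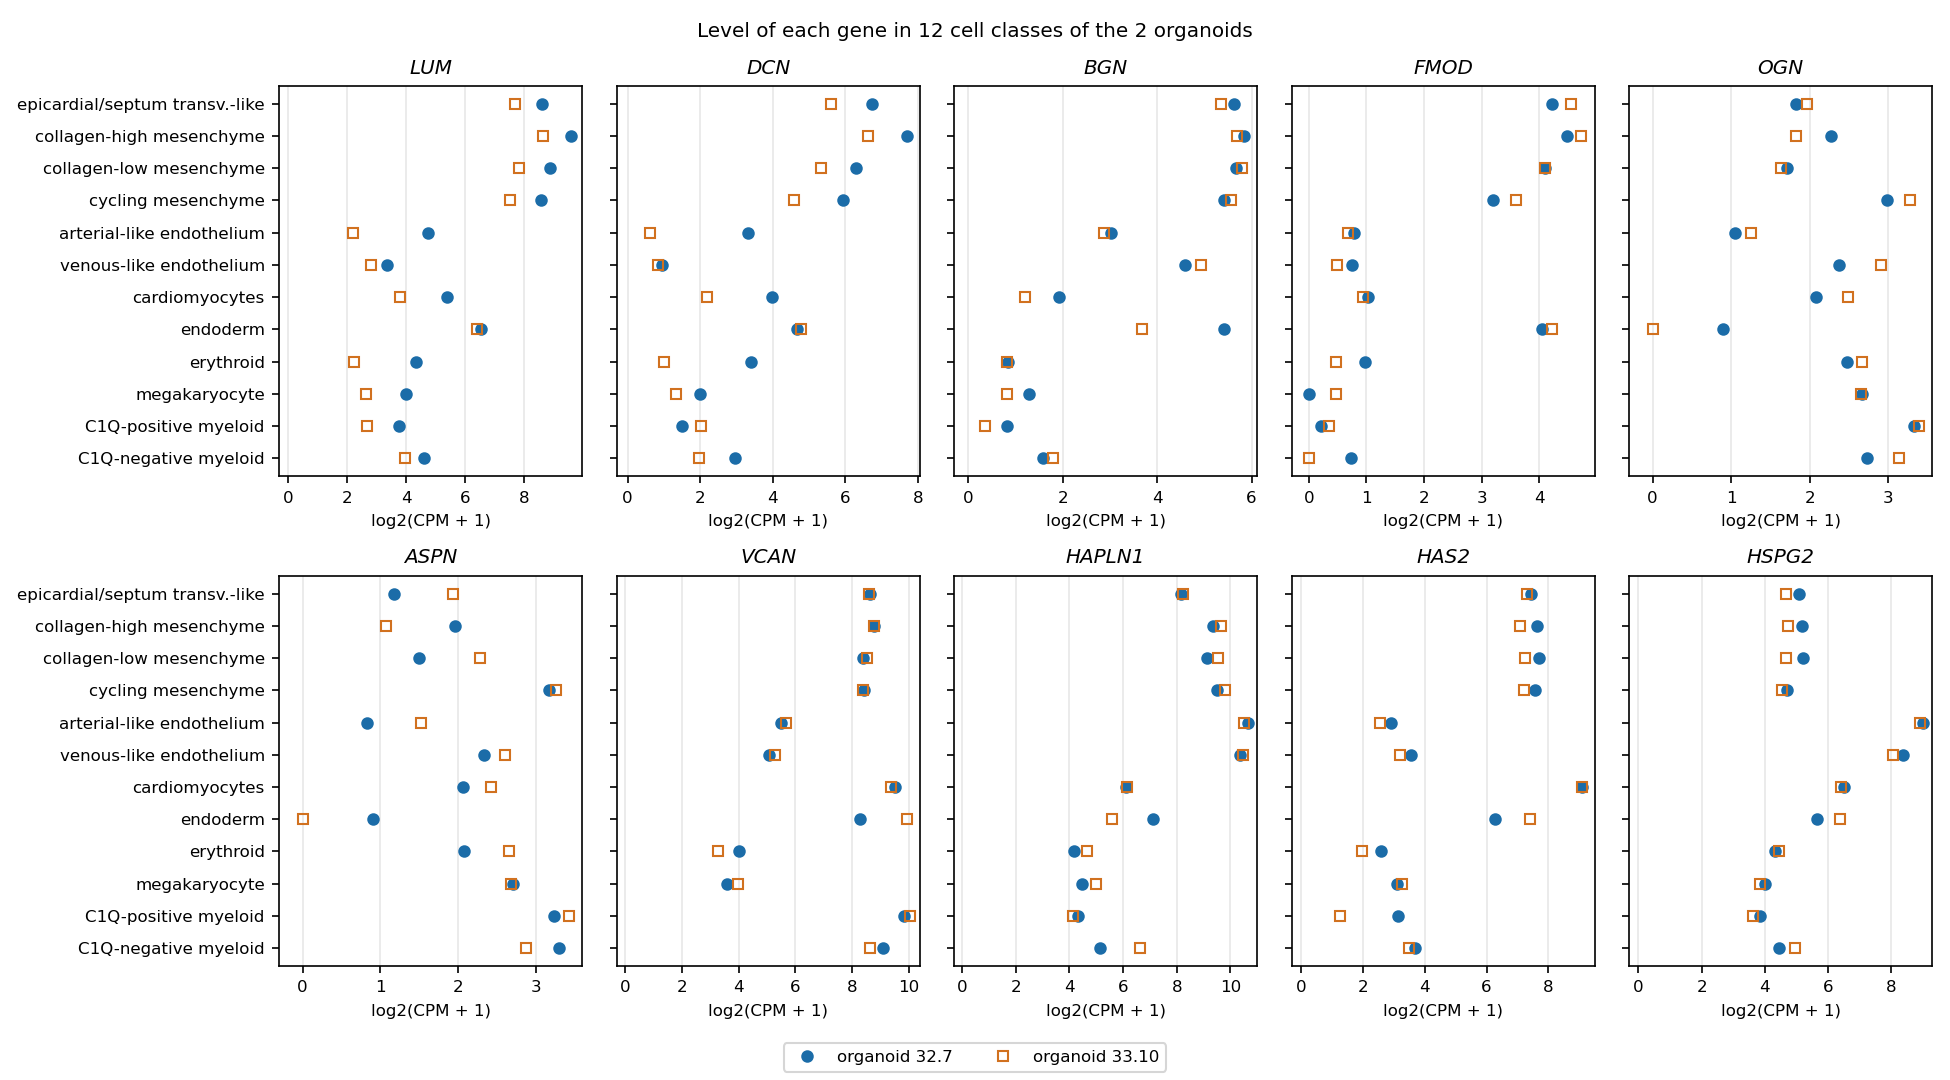
Level of each gene as log2(CPM + 1) on the horizontal axis in 12 cell classes, with a filled circle for organoid 32.7 and an open square for organoid 33.10. LUM, DCN and BGN are highest in mesenchymal classes, HAPLN1 and HSPG2 in endothelium, HAS2 in CMs and VCAN in C1Q-positive myeloid cells, at 911 and 1060.0 CPM.

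LUM encodes lumican, a keratan sulfate proteoglycan that binds collagen fibrils. It stood at 520.1 and 239 CPM in mesenchyme, 24.5 and 5.67 CPM in endothelium, 41.0 and 12.8 CPM in CMs, 91.1 and 82.8 CPM in endoderm and 17.7 and 4.96 CPM in blood. Both mesenchymal values lay above all values of these other classes. Cells that passed no gate stood at 537 and 113 CPM. The mesenchymal level in organoid 32.7 was 2.18 times that in organoid 33.10, and erythroid cells, which are not known to make lumican, were also higher in organoid 32.7, at 19.0 and 3.73 CPM.

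Inside the mesenchyme, LUM was highest in collagen-high cells (at least 50 UMIs of the fibrillar collagens), at 770.3 and 397 CPM. Collagen-low cells were at 469.6 and 225 CPM, epicardial and septum transversum-like cells at 386 and 204 CPM and cycling cells at 379 and 181 CPM. The collagen-high range overlapped that of collagen-low cells but not those of the other subsets. A UMI of LUM was found in 68.7% and 51.0% of mesenchymal cells (exact 95% binomial intervals 66.8 to 70.6 and 49.1 to 52.9, counting error only), against 7.49% and 2.29% of erythroid cells, with medians of 12517 and 11517 and of 15808 and 11319 UMIs per cell. After thinning each cell to 2000 UMIs the shares were 44.7% and 27.2% in mesenchyme and 2.66% and 0.809% in erythroid cells. The 10% of mesenchymal cells with the most LUM held 43.6% and 53.5% of its UMIs.

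DCN encodes decorin, which binds collagen fibrils and TGF-β. Its level was 119.9 and 47.6 CPM in mesenchyme, 24.3 and 26.6 CPM in endoderm, 14.8 and 3.58 CPM in CMs, 8.45 and 0.859 CPM in endothelium and 6.56 and 1.40 CPM in blood. Among these 5 classes mesenchyme was highest in both organoids, whereas cells that passed no gate stood at 174 and 28.1 CPM. As for LUM, organoid 32.7 was higher than organoid 33.10 in mesenchyme and in erythroid cells (9.53 and 1.02 CPM). Mesenchyme exceeded endothelium by a log2 fold change of 4.05 ± 1.03 (adjusted p = 0.0106), CMs by 3.13 ± 1.01 (adjusted p = 0.0385) and blood by 4.00 ± 1.04 (adjusted p = 0.00833), where ± gives the SE and adjusted p is the Benjamini-Hochberg value of edgeR's quasi-likelihood test. With 10% of the library profile removed the fold against blood was 6.73 (adjusted p = 0.00552), with 45 and 0 of 230 and 69 blood UMIs left. In endothelium 118 and 0 of 314 and 28 UMIs were left. The call against CMs was lost when 10% of the library profile was removed (log2 fold change 3.65, adjusted p = 0.0604), with 129 and 35 of 200 and 58 UMIs left in CMs. The difference from endoderm, 1.78 ± 1.27 (adjusted p = 0.410), passed only with the organoid as a block (2.24, adjusted p = 0.0218). The log2 ratio to endothelium was 3.73 and 5.64 in the organoids.

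DCN was concentrated in few cells. The 10% of mesenchymal cells with the most DCN held 75.3% and 82.6% of its UMIs, and a UMI was found in 33.1% and 20.4% of the cells. Collagen-high cells were at 207 and 98.4 CPM and collagen-low cells at 77.7 and 39.0 CPM without overlap, a difference of 1.36 ± 0.74 (adjusted p = 0.565) that passed with the organoid as a block (1.33, adjusted p = 0.0155). Epicardial and septum transversum-like cells stood at 105 and 47.6 CPM and cycling cells at 59.8 and 22.9 CPM. Cycling against non-cycling mesenchyme gave -1.17 ± 0.66 (adjusted p = 0.268), which also passed with the block (-1.19, adjusted p = 0.00221).

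DCN was higher in mesenchymal cells with many UMIs of LUM than in those without. The share of cells that held both genes was not counted. In non-cycling mesenchyme 564 and 237 cells had at least 10 UMIs of LUM and 654 and 1178 cells had 0. DCN stood at 330.0 and 208 CPM in the former and at 7.46 and 5.93 CPM in the latter. BGN stood at 54.7 and 69.0 CPM against 31.0 and 29.999 CPM and FMOD at 27.9 and 39.3 CPM against 13.8 and 13.5 CPM, whereas HAPLN1 ran the other way, at 391 and 575 CPM against 603 and 712 CPM. These are descriptions of cells chosen by their LUM count, and the chosen cells also had more UMIs (medians of 14319.5 and 14264 against 11091.5 and 10338).

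BGN encodes biglycan, a close relative of decorin that carries chondroitin or dermatan sulfate. It was at 49.96 and 48.0 CPM in mesenchyme, 41.6 and 11.8 CPM in endoderm, 11.6 and 12.3 CPM in endothelium, 2.81 and 1.30 CPM in CMs and 1.20 and 0.770 CPM in blood. The organoids were close to each other in mesenchyme, and mesenchyme did not overlap with any other class. It exceeded endothelium by 1.95 ± 0.34 (adjusted p = 0.00144), CMs by 4.51 ± 0.42 (adjusted p = 4.46e-05) and blood by 5.22 ± 0.42 (adjusted p = 7.15e-06) on the log2 scale, although 0 and 0 of 42 and 38 blood UMIs were left with 10% of the library profile removed. That removal left 13 and 0 of 38 and 21 UMIs in CMs. The difference from endoderm was 0.61 ± 0.43 (adjusted p = 0.397), with 48 and 4 UMIs behind the endodermal values. All 4 mesenchymal subsets lay between 39.9 and 56.3 CPM. In endothelium, arterial-like cells were at 7.06 and 6.32 CPM and venous-like cells at 23.0 and 29.5 CPM without overlap, and the log2 fold change of arterial-like against venous-like cells was -1.86 ± 0.26 (adjusted p = 5.22e-05).

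FMOD encodes fibromodulin, another collagen-binding keratan sulfate proteoglycan. Mesenchyme stood at 16.7 and 18.2 CPM and endoderm at 15.6 and 17.7 CPM, and these ranges overlapped (log2 fold change 0.12 ± 0.27 (adjusted p = 0.813)), although only 18 and 6 UMIs lay behind the endodermal values. Endothelium was at 0.781 and 0.613 CPM, CMs at 1.03 and 0.925 CPM and blood at 0.485 and 0.405 CPM. Mesenchyme exceeded endothelium by 4.54 ± 0.24 (adjusted p = 1.30e-06), CMs by 4.06 ± 0.25 (adjusted p = 4.23e-06) and blood by 4.85 ± 0.25 (adjusted p = 6.82e-07). With 10% of the library profile removed 7 and 2 of 29 and 20 UMIs were left in endothelium and 0 and 0 of 17 and 20 in blood. Cycling mesenchyme was at 8.15 and 11.1 CPM, below the non-cycling subsets at 21.3 and 25.4 CPM (collagen-high), 17.8 and 22.6 CPM (epicardial and septum transversum-like) and 16.1 and 16.1 CPM (collagen-low), and the log2 fold change was -1.06 ± 0.23 (adjusted p = 0.00455).

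VCAN encodes versican and was present in most classes. CMs stood at 723 and 668 CPM, mesenchyme at 382 and 380.0 CPM, endoderm at 314 and 990.3 CPM, blood at 361 and 131 CPM and endothelium at 47.3 and 47.1 CPM. Among these 5 classes endothelium was lowest and overlapped with no other. Mesenchyme was higher than endothelium by a log2 fold change of 2.92 ± 0.50 (adjusted p = 0.00128). Differences of mesenchyme from CMs, -0.95 ± 0.47 (adjusted p = 0.155), endoderm, -0.63 ± 0.49 (adjusted p = 0.453), and blood, 0.19 ± 0.47 (adjusted p = 0.754), did not pass. Against endoderm and blood the organoids differed in sign, with log2 ratios of 0.27 and -1.25 and of -0.34 and 1.08. Against CMs the log2 ratios were -0.99 and -0.92. Each SE comes from 1 spread estimated over all 5 classes, endoderm and blood included. Inside the mesenchyme all 4 subsets lay between 336 and 443 CPM, and no comparison of subsets passed.

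The blood value of VCAN was a mixture. Erythroid cells stood at 15.1 and 8.68 CPM and megakaryocytes at 11.1 and 14.6 CPM. With 10% of the library profile removed 0 and 0 of 173 and 179 UMIs were left in erythroid cells and 0 and 0 of 70 and 267 in megakaryocytes. Myeloid cells with at most 1 UMI of the complement genes C1QA, C1QB and C1QC (C1Q-negative) were at 546 and 395 CPM, and those with at least 10 (C1Q-positive), a pattern typical of macrophages, at 911 and 1060.0 CPM. The C1Q-positive values were the highest by mean among the 12 classes, although the endodermal range overlapped them. C1Q-positive exceeded C1Q-negative cells by 1.10 ± 0.30 (adjusted p = 0.0149), with log2 ratios of 0.77 and 1.502. This call was lost with the gate thresholds doubled (log2 fold change 0.84, adjusted p = 0.0860) and with 10% of the library profile removed (log2 fold change 1.10, adjusted p = 0.146). The removal left 5839 and 3716 of 6040 and 3801 UMIs in C1Q-positive cells. In C1Q-negative cells 3918 and 760 of 4149 and 809 were left. The median C1Q-positive cell held 9 and 12 UMIs of VCAN, against 1 and 1 for C1Q-negative cells, in which 10% of the cells held 62.2% and 68.0% of the UMIs. VCAN-AS1, an antisense gene inside VCAN, stood at 24.3 and 44.6 CPM and at 11.8 and 6.84 CPM in these classes. The sources used here do not say how counting used strand, so reads of VCAN and VCAN-AS1 cannot be told apart with certainty, and the same holds for HAS2 and HAS2-AS1.

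HAPLN1, whose link protein ties versican to hyaluronan, was highest in endothelium. It stood at 1527 and 1427 CPM in endothelium, 539.7 and 676 CPM in mesenchyme, 139 and 47.3 CPM in endoderm, 68.0 and 70.2 CPM in CMs and 23.3 and 28.2 CPM in blood. Endothelium was above all other classes and mesenchyme above the remaining ones in both organoids, whereas endoderm and CMs overlapped. Mesenchyme differed from endothelium by a log2 fold change of -1.38 ± 0.31 (adjusted p = 0.00597), a call lost with 10% of the library profile removed (log2 fold change -1.44, adjusted p = 0.113). That removal left 54571 and 44870 of 56748 and 46550 endothelial UMIs, and 15812 and 22996 of 17737 and 24895 mesenchymal UMIs. Mesenchyme exceeded CMs by 3.05 ± 0.33 (adjusted p = 0.000122), endoderm by 2.56 ± 0.36 (adjusted p = 0.00107) and blood by 4.12 ± 0.35 (adjusted p = 1.05e-05). The log2 ratios to endoderm were 1.94 and 3.97. Behind the endodermal values lay 160 and 16 UMIs, of which 92 and 0 were left with 10% of the library profile removed. With 10% of the library profile removed the fold against CMs was 5.14 (adjusted p = 0.00209), and 0 and 0 of 816 and 1394 UMIs were left in blood. A UMI was found in 97.2% and 96.8% of endothelial cells and in 12.1% and 10.3% of erythroid cells, or in 83.5% and 83.0% and in 2.16% and 3.57% after thinning. Arterial-like cells stood at 1629 and 1469.9 CPM and venous-like cells at 1299 and 1425 CPM, and the difference of 0.29 ± 0.32 (adjusted p = 0.617) did not pass.

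In the mesenchyme HAPLN1 differed by subset. Epicardial and septum transversum-like cells were at 282 and 302 CPM, below collagen-high cells at 650.3 and 793 CPM, collagen-low cells at 554 and 749.7 CPM and cycling cells at 719.9 and 899 CPM, with no overlap. The log2 fold change of epicardial and septum transversum-like cells against the other non-cycling cells was -1.32 ± 0.30 (adjusted p = 0.0432), a call lost with 10% of the library profile removed (log2 fold change -1.53, adjusted p = 0.392). That removal left 1940 and 2398 of 2448 and 2891 UMIs in epicardial and septum transversum-like cells. It left 5723 and 4667 of 6290 and 4991 in collagen-high and 4333 and 8656 of 4846 and 9295 in collagen-low cells. Cycling cells differed from non-cycling cells by 0.60 ± 0.26 (adjusted p = 0.131), which passed with the organoid as a block (0.60, adjusted p = 0.0224). Among myeloid cells HAPLN1 was lower in C1Q-positive cells, at 19.1 and 16.7 CPM against 34.0 and 97.2 CPM. The log2 fold change was -1.69 ± 0.39 (adjusted p = 0.00458), with ratios of -0.79 and -2.45, and -2.88 (adjusted p = 0.000149) with the gate thresholds doubled. With 10% of the library profile removed 0 and 0 UMIs were left in C1Q-positive and 0 and 94 in C1Q-negative cells, of 127 and 60 and of 258 and 199, so that both classes of organoid 32.7 were at 0. Predicted doublets made up 10.1% and 16% of the C1Q-negative cells.

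HAS2 encodes the main hyaluronan synthase of the embryonic heart. It stood at 547 and 540.4 CPM in CMs, 192 and 149 CPM in mesenchyme, 76.4 and 168 CPM in endoderm, 10.1 and 6.81 CPM in endothelium and 7.67 and 5.10 CPM in blood. CMs overlapped with no other class, whereas mesenchyme overlapped with endoderm and endothelium with blood. Mesenchyme was lower than CMs, with a log2 fold change of -1.76 ± 0.29 (adjusted p = 0.00149), and higher than endothelium by 4.24 ± 0.33 (adjusted p = 9.76e-06) and blood by 4.31 ± 0.33 (adjusted p = 5.79e-06). With 10% of the library profile removed 0 and 0 UMIs of HAS2 were left in endothelium, of 375 and 222, and 0 and 0 in blood, of 269 and 252, so that no fold is given there. Against endoderm the value was 0.68 ± 0.34 (adjusted p = 0.221), which passed with the gate thresholds halved (log2 fold change 1.55, adjusted p = 0.0213). A UMI of HAS2 was found in 69.2% and 78.3% of CMs, in 70.5% and 62.6% of mesenchymal cells and in 5.66% and 2.90% of erythroid cells. These shares are not adjusted for depth, and CMs had medians of 9308 and 9788 UMIs per cell, against 12517 and 11517 in mesenchyme. The 4 mesenchymal subsets lay between 134 and 206 CPM and no comparison among them passed. HAS2-AS1, which overlaps HAS2 on the opposite strand, stood at 24.1 and 26.2 CPM in CMs and 13.6 and 10.6 CPM in mesenchyme.

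HSPG2 encodes perlecan. It stood at 443 and 390.4 CPM in endothelium, 89.1 and 83.9 CPM in CMs, 49.5 and 82.8 CPM in endoderm, 32.9 and 24.2 CPM in mesenchyme and 17.9 and 18.0 CPM in blood, in this order and with no overlap between these classes. The log2 fold change of mesenchyme was -3.96 ± 0.21 (adjusted p = 1.16e-06) against endothelium and -1.68 ± 0.19 (adjusted p = 0.000148) against CMs. Against endoderm it was -1.05 ± 0.24 (adjusted p = 0.0160), with 57 and 28 endodermal UMIs, a call lost with the gate thresholds halved (log2 fold change -0.74, adjusted p = 0.127). The difference from blood was 0.24 ± 0.19 (adjusted p = 0.308), which passed with 10% of the library profile removed (log2 fold change 1.17, adjusted p = 0.0154), where 610 and 494 of 1080 and 892 mesenchymal and 125 and 355 of 626 and 888 blood UMIs were left. Erythroid cells stood at 19.1 and 20.9 CPM. A UMI of HSPG2 was found in 93.1% and 87.3% of endothelial cells. Arterial-like cells stood at 518 and 478 CPM and venous-like cells at 327 and 263 CPM without overlap, a difference of 0.86 ± 0.20 (adjusted p = 0.00458). Its call was lost with 10% of the library profile removed (log2 fold change 0.92, adjusted p = 0.0559). That removal left 10338 and 7767 of 10631 and 7946 arterial-like UMIs, and 2324 and 1888 of 2430 and 1969 venous-like UMIs. C1Q-positive cells, at 13.3 and 11.4 CPM, were lower than C1Q-negative cells, at 20.8 and 29.8 CPM, with a log2 fold change of -0.89 ± 0.27 (adjusted p = 0.0281), a call lost with the gate thresholds halved (log2 fold change -0.80, adjusted p = 0.117), and 0 and 2 of 88 and 41 C1Q-positive UMIs were left with 10% of the library profile removed.

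**Figure D2:**
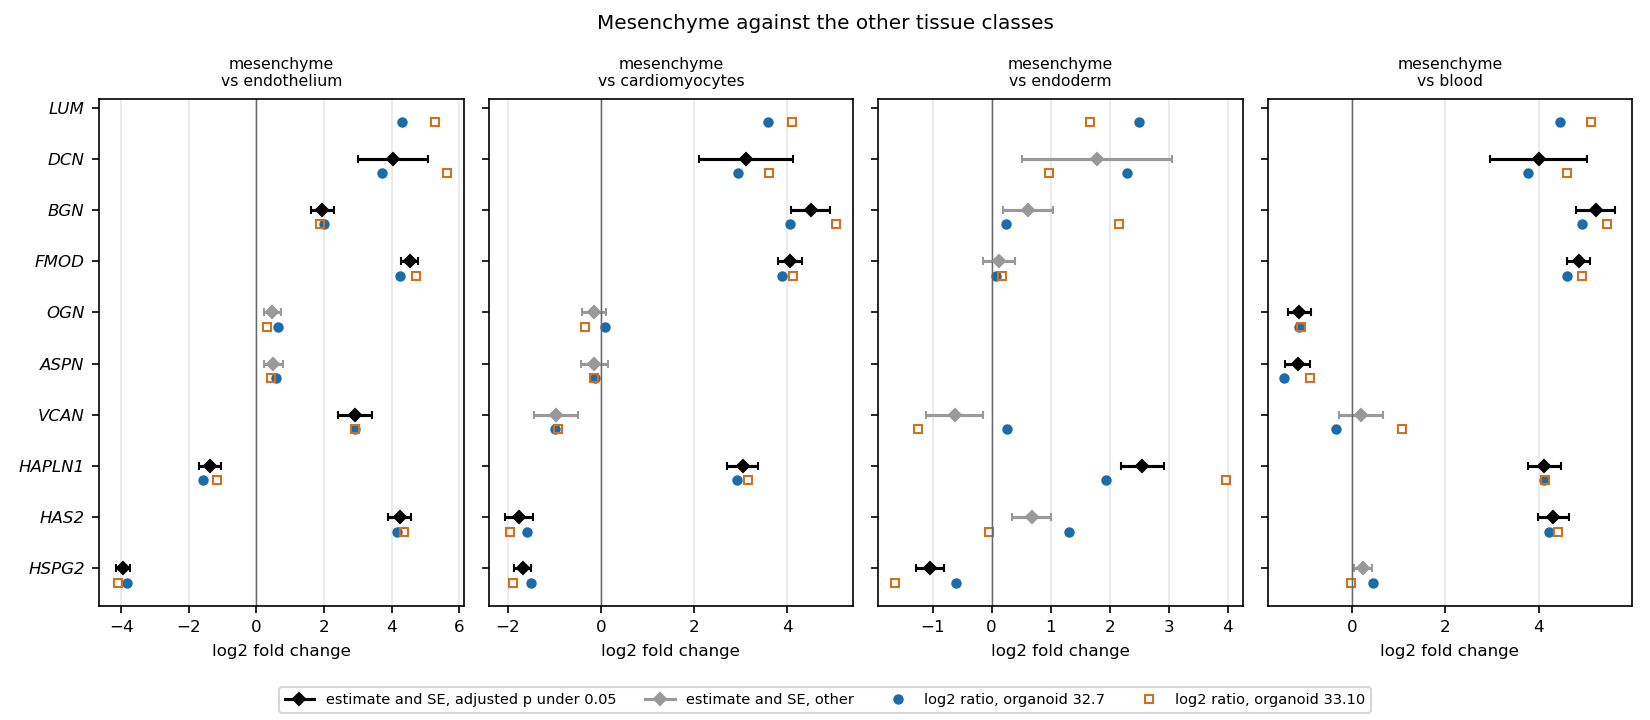
Log2 fold change (horizontal axis) of mesenchyme against endothelium, CMs, endoderm and blood for each gene, with diamonds and bars for the edgeR estimate and the SE derived from its F statistic (black where the adjusted p passed 0.05) and points below for the log2 ratio in organoid 32.7 (filled circle) and 33.10 (open square). No estimate is drawn for LUM, OGN and ASPN are left out against endoderm, where they had at most 1 UMI, and HSPG2 lies farthest to the left, at -3.96 against endothelium.

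OGN and ASPN encode osteoglycin and asporin, small leucine-rich proteins known from bone, tendon and other collagen-rich tissue. Both were low everywhere. OGN stood at 3.62 and 3.93 CPM in mesenchyme, 2.18 and 2.97 CPM in endothelium, 3.25 and 4.63 CPM in CMs and 5.96 and 6.18 CPM in blood. ASPN stood at 3.07 and 4.23 CPM in mesenchyme, 1.91 and 2.97 CPM in endothelium, 3.18 and 4.38 CPM in CMs and 6.30 and 5.75 CPM in blood. Mesenchyme was lower than blood, with log2 fold changes of -1.12 ± 0.24 (adjusted p = 0.00326) for OGN and -1.16 ± 0.28 (adjusted p = 0.00527) for ASPN, and did not differ past the threshold from endothelium or CMs. In endoderm each gene had 1 and 0 UMIs, and 3 counts would be 8.87 CPM in organoid 33.10, so that no fold is given. A UMI of OGN was found in 4.59% and 4.32% of mesenchymal cells, below the 6.99% and 6.74% of erythroid cells.

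By mean, OGN and ASPN were highest in C1Q-positive myeloid cells and cycling mesenchyme. OGN stood at 9.05 and 9.48 CPM and 6.93 and 8.73 CPM in these classes, and ASPN at 8.44 and 9.76 CPM and 7.97 and 8.62 CPM. Cycling mesenchyme exceeded non-cycling mesenchyme by 1.498 ± 0.21 (adjusted p = 6.01e-05) for OGN and 1.77 ± 0.33 (adjusted p = 0.000961) for ASPN. Arterial-like endothelium was lower than venous-like endothelium, with log2 fold changes of -2.02 ± 0.29 (adjusted p = 6.03e-05) and -1.71 ± 0.45 (adjusted p = 0.0109), and with OGN at 1.07 and 1.38 against 4.17 and 6.55 CPM and ASPN at 0.779 and 1.87 against 4.03 and 5.08 CPM. The endothelial classes were not split by cycling. HMMR, a gene of the mitotic spindle, was also lower in arterial-like cells (-2.08 ± 0.20, adjusted p = 8.70e-07). The part of cycling in the differences between arterial-like and venous-like cells was not tested for any gene.

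CENPP, whose span holds OGN and ASPN, was also higher in cycling mesenchyme, venous-like endothelium and blood, although its highest mean was in C1Q-negative cells, the third class for OGN and ASPN. It stood at 138 and 153 CPM in cycling mesenchyme against 33.3 and 41.3 CPM in collagen-high cells, at 67.7 and 118 CPM in venous-like against 23.5 and 31.6 CPM in arterial-like endothelium, at 177 and 246 CPM in C1Q-positive and 195 and 241 CPM in C1Q-negative cells, and at 132 and 127 CPM in blood against 52.4 and 67.2 CPM in mesenchyme. OMD and ECM2, the other small leucine-rich genes inside CENPP, rose in cycling mesenchyme by 1.23 ± 0.22 (adjusted p = 0.000611) and 1.54 ± 0.31 (adjusted p = 0.00237). Over the 24 class sums, which come from 2 libraries, the Pearson correlation of log2(CPM + 1) with CENPP was 0.91 for OGN, 0.91 for ASPN, 0.84 for OMD and 0.92 for ECM2. Intronic reads were counted, so reads of CENPP introns and of the genes inside them could be separated by strand alone. The part of CENPP reads in the levels of OGN and ASPN was not tested.

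**Figure D3:**
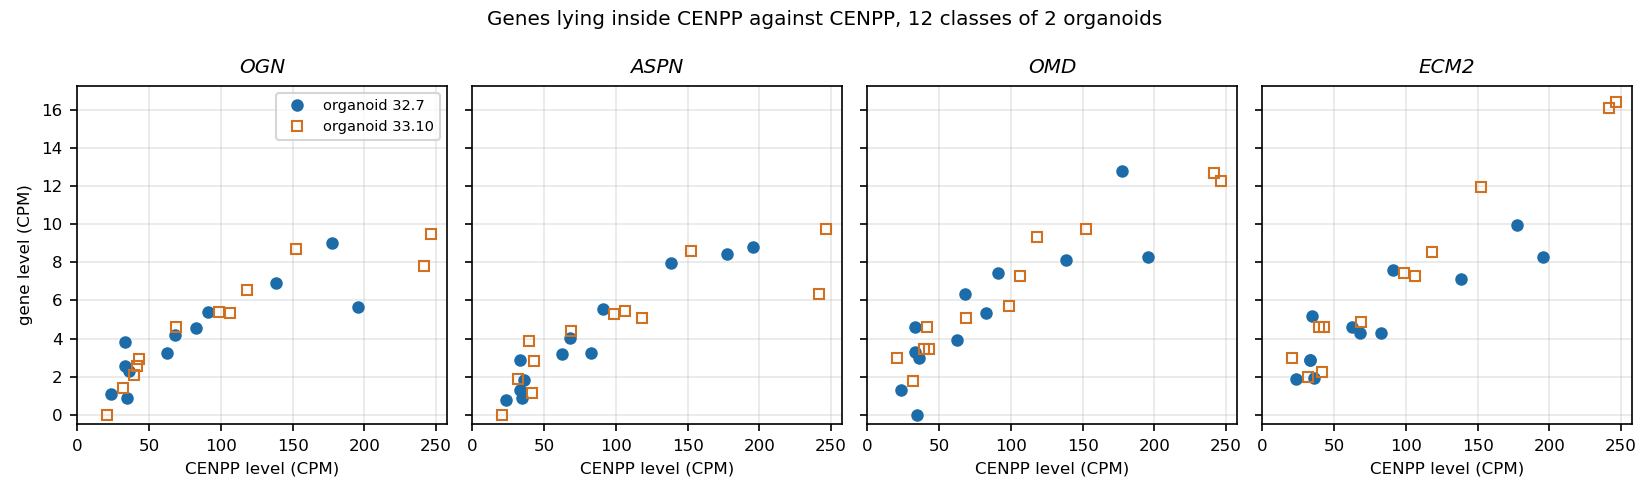
Level of OGN, ASPN, OMD and ECM2 (CPM, vertical axis) against the level of CENPP (CPM, horizontal axis) in 12 classes, with filled circles for organoid 32.7 and open squares for organoid 33.10. All 4 genes lie higher where CENPP is higher, with correlations of 0.84 to 0.92 on the log2(CPM + 1) scale.

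The number of members called was set beside the share of all genes called in the same comparison. Against endothelium 5 of the 9 members other than LUM were higher in mesenchyme and 2 lower, where 22.6% of 23049 genes were higher and 20.2% lower. Against CMs 4 were higher and 2 lower (16.8% and 16.2% of genes). Against endoderm 1 was higher and 1 lower (9.1% and 6.99%), where the median of all genes was 0.24 and became 0.02 with DESeq2. Against blood 5 were higher and 2 lower (27.5% and 28.6%). The median log2 fold change of the 9 members was 1.95 against endothelium, -0.14 against CMs and 4.00 against blood, where the medians of all genes were 0.01, 0.00 and -0.05. These comparisons share the mesenchymal sums, and the members were chosen by name, so nothing is read from the counts about the list as a whole.

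Inside the mesenchyme fewer than 1% of genes were called in either direction in the epicardial and the collagen comparison. In epicardial and septum transversum-like cells 0 members were higher and 1 lower, where 0.594% of 20359 genes were higher and 0.305% lower. With the organoid as a block the calls over all genes went from 121 and 62 to 939 and 1301. Between collagen-high and collagen-low cells edgeR called 0 of the 9 members (0.0295% and 0.0933% of genes), with 0 at an unadjusted p under 0.05 and 0 by DESeq2, and the block raised the calls over all genes from 6 and 19 to 238 and 299. Collagen-high cells had medians of 15076 and 15713 UMIs per cell and collagen-low cells 8463 and 8310. In cycling mesenchyme 2 members were higher and 1 lower (7.26% and 6.52% of genes), and the block raised the calls over all genes from 1479 and 1328 to 2114 and 2593.

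In arterial-like against venous-like endothelium 1 member was higher and 3 lower (8.83% and 9.51% of genes). DCN stood at 9.01 and 0.542 CPM in arterial-like and 0.941 and 0.802 CPM in venous-like cells, and its call with the block (2.51, adjusted p = 0.0342) went with organoids of opposite sign, at log2 ratios of 3.22 and -0.41. In C1Q-positive against C1Q-negative cells 1 member was higher and 2 lower (9.84% and 7.8% of genes).

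**Figure D4:**
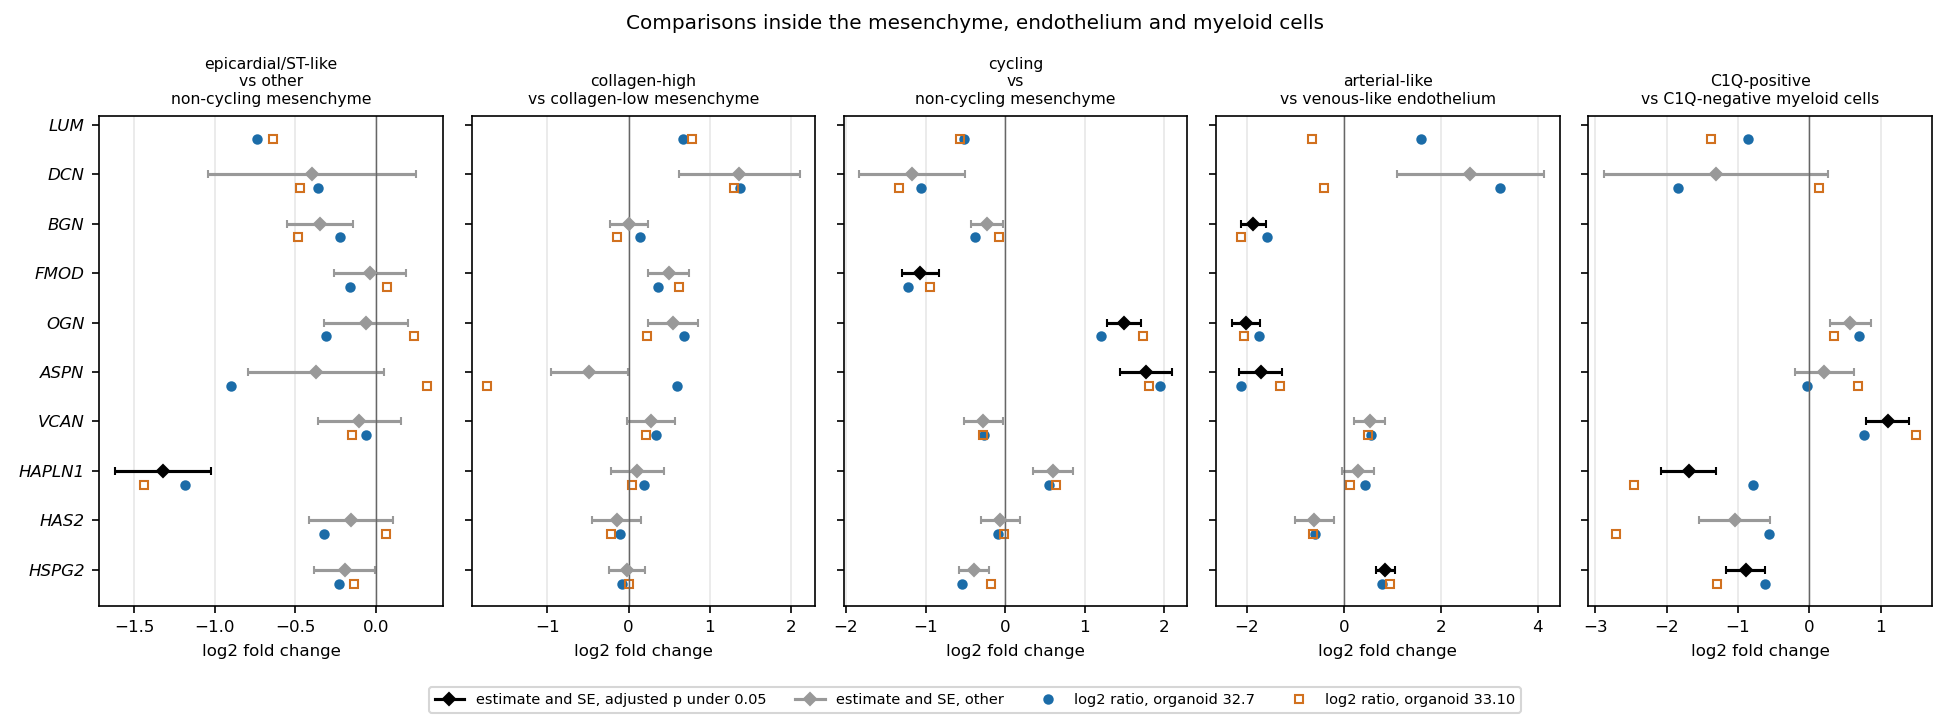
Log2 fold change (horizontal axis) of each gene in 5 comparisons inside the mesenchyme, the endothelium and the myeloid cells, with symbols as for the tissue classes. Genes with 3 or fewer UMIs in a class sum are left out. HAPLN1 lies left of 0 in the epicardial and C1Q panels, and BGN, OGN and ASPN lie left of 0 in the arterial panel.

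Other genes of matrix and sugar chain biology came from 6 lists with 84 genes, of which 77 were tested between tissue classes. Between mesenchyme and endothelium 25 were higher in mesenchyme and 22 lower, beside 22.6% and 20.2% of all genes, and the same shares stand beside each list of this comparison. Of 7 small leucine-rich genes 2 were higher and 0 lower, and PRELP stood at 4.14 and 3.53 against 0.108 and 0.215 CPM (4.47 ± 0.43, adjusted p = 3.32e-05). Of 12 basement membrane and cell-surface proteoglycans 6 were higher and 3 lower. The syndecan SDC2 stood at 67.8 and 57.7 against 1.67 and 1.72 CPM (5.12 ± 0.27, adjusted p = 1.17e-06). Of 19 genes that make, break or bind hyaluronan 3 were higher and 7 lower. Among the lower ones were the hyaluronan receptor LYVE1, at 0.578 and 0.597 against 25.5 and 15.8 CPM, and the scavenger receptor STAB1, at 1.25 and 1.03 against 37.3 and 29.6 CPM. Of 5 hyalectan and link protein genes 4 were higher and 0 lower, and the leading ones, HAPLN4 and ACAN, were at or below 1.06 CPM in mesenchyme.

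Proteases that cut versican differed between these classes. Of 6 genes 2 were higher in mesenchyme and 4 lower (22.6% and 20.2% of all genes). ADAMTS5 stood at 207 and 156 CPM in endothelium and 2.43 and 1.68 CPM in mesenchyme (-6.56 ± 0.50, adjusted p = 8.05e-06), and within endothelium at 260.4 and 196 CPM in arterial-like and 48.7 and 35.5 CPM in venous-like cells (2.54 ± 0.31, adjusted p = 1.25e-05). ADAMTS15 stood at 14.1 and 11.9 CPM in mesenchyme and 0.377 and 0.0613 CPM in endothelium (5.71 ± 0.65, adjusted p = 9.32e-05). The endothelial sums held 37153622 and 32614323 UMIs, so few molecules lay behind the endothelial values of ADAMTS15. The size of its fold is therefore uncertain. Of 28 genes that build and sulfate the sugar chains 8 were higher and 8 lower (22.6% and 20.2% of all genes). CHST15 and CSGALNACT1, enzymes of chondroitin sulfate, stood at 49.1 and 54.2 CPM and 164 and 172 CPM in endothelium, against 1.58 and 1.52 CPM and 4.20 and 6.54 CPM in mesenchyme.

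Against CMs 31 of the 77 list genes were higher in mesenchyme and 5 lower (16.8% and 16.2% of all genes). The hyaluronan receptor LAYN stood at 22.3 and 17.9 against 0.739 and 0.802 CPM (4.61 ± 0.26, adjusted p = 2.52e-06), whereas XYLT1, which starts the chains on core proteins, was lower, at 10.2 and 12.0 against 34.5 and 46.8 CPM (-1.96 ± 0.31, adjusted p = 0.00100). Against blood 43 were higher and 15 lower (27.5% and 28.6% of all genes). SRGN, the proteoglycan of haematopoietic granules, stood at 13.7 and 12.9 CPM in mesenchyme and 1136 and 414 CPM in blood (-6.31 ± 0.67, adjusted p = 4.00e-05). Against endoderm 16 were higher and 6 lower (9.1% and 6.99% of all genes). AMBP, a serum protein precursor that includes a part of the inter-α-inhibitor, stood at 622 and 473 CPM in endoderm and 0.213 and 0.271 CPM in mesenchyme (-11.08 ± 0.43, adjusted p = 2.00e-06).

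Of the 75 list genes tested in the finer classes edgeR called 0 in epicardial and septum transversum-like cells (0.594% and 0.305% of all genes). DESeq2 called 3 there, beside 672 of all 20359 genes. Between collagen-high and collagen-low cells edgeR called 0 (0.0295% and 0.0933% of all genes) and DESeq2 2, beside 262 of all genes. At an unadjusted p under 0.05 there were 13 and 11 list genes. The share of all genes at that limit was not counted, so nothing is read from these numbers. In cycling mesenchyme 6 were higher and 3 lower (7.26% and 6.52% of all genes). HMMR, a hyaluronan-binding protein of the mitotic spindle, stood at 140.2 and 144 CPM in cycling and 12.2 and 16.2 CPM in collagen-low cells (3.81 ± 0.13, adjusted p = 2.06e-13 against all non-cycling cells). Between arterial-like and venous-like endothelium 13 were higher and 10 lower (8.83% and 9.51% of all genes). The hyaluronan scavenger receptor STAB2 stood at 0.243 and 0.301 against 29.0 and 15.4 CPM (-6.20 ± 0.51, adjusted p = 1.37e-07) and the link protein gene HAPLN3 at 1.95 and 1.57 against 18.1 and 15.5 CPM (-3.14 ± 0.29, adjusted p = 5.62e-07). In C1Q-positive against C1Q-negative cells 11 were higher and 9 lower (9.84% and 7.8% of all genes). STAB1 stood at 80.1 and 70.6 against 6.45 and 8.80 CPM (3.43 ± 0.37, adjusted p = 2.49e-06) and SRGN at 545 and 607 against 4075 and 3189.7 CPM (-2.61 ± 0.48, adjusted p = 0.000682).

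The genes most like each member over the 24 class sums were named by the Pearson correlation of log2(CPM + 1), as a description. For LUM they were CRISPLD2 (0.98), DCN (0.98) and PENK (0.97), and DCN was also most like LUM, CRISPLD2 (0.96) and SMOC2 (0.95). BGN was most like KDELR2 (0.97), P3H3 (0.97) and RCN1 (0.96), and FMOD most like FBLN5 (0.97), CACNG4 (0.97) and IL2RB (0.97). OGN and ASPN were most like each other (0.94) and then CENPP, followed by CDC25A for OGN (0.88) and AC079841.2 for ASPN (0.88). VCAN was most like VCAN-AS1 (0.98), QDPR (0.94) and MYOF (0.94), and HAS2 most like PDZRN3 (0.97), TGFB2 (0.97) and HAS2-AS1 (0.97). HAPLN1 was most like TM4SF1 (0.97), THY1 (0.96) and ST6GALNAC3 (0.96), and HSPG2 most like DISC1FP1 (0.95), AFAP1L1 (0.94) and PREX2 (0.94). Of the neighbours, LUM and DCN had a correlation of 0.98, whereas VCAN and HAPLN1 had one of 0.02.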

How the data were processed

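Single cells of 2 BG-HFOs were sequenced with 10x 3′ v3.1 kits. The deposited values are raw UMI counts, which the authors made with Cell Ranger 7.0.0 against GRCh38 with intronic reads included, before their aggregation to equal depth, ambient RNA removal and cell filter. The use of strand in counting is not given in the sources used here. The members and lists were chosen with earlier results of these data known.

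Cells with 50 to 11000 genes, under 30% mitochondrial counts and at least 2000 UMIs were gated on raw UMIs. Doublets were kept, except that cells passing more than 1 tissue gate were left out. UMIs were summed by class and organoid, and edgeR 4.0.16 (quasi-likelihood test, TMM, filterByExpr; R 4.3.3) was fitted over all genes in 1 fit of 5 tissue classes and 1 fit of 12 finer classes, with Benjamini-Hochberg adjustment and a threshold of 0.05. The scripts were tested on simulated data. Named genes were the 10 members and, from each list and comparison, the 2 with the largest absolute log2 fold change among those called, of which a selection is printed. CENPP, VCAN-AS1 and HAS2-AS1 were added after their values were seen. Alternatives were DESeq2 1.42.0, its size factors, no filter, doubled or halved gates, at least 5000 UMIs per cell, doublet removal, 10% of the library profile removed, and the organoid as a block. Class sums of 1 organoid are paired by origin, and their deviations correlated at 0.02 to 0.36 (median 0.22) in the tissue classes and at -0.02 to 0.36 (median 0.12) in the finer ones. With 2 organoids of 1 line, p-values measure the spread between these organoids. Each fit estimated 1 spread per gene over all its classes. A test therefore also carries the spread of classes outside its comparison. Binomial intervals are exact (Clopper-Pearson).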

Additional observations from a re-analysis of the deposited data

How the results depend on the processing

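Of 33 calls of single members, all kept their direction under the 9 alternatives. DESeq2, its size factors, no filter, the organoid as a block, at least 5000 UMIs per cell and doublet removal lost 0 of them, doubled gates 1, halved gates (chosen after seeing the data) 2 and removal of 10% of the library profile 5. Newly called were 9 with no filter, 5 with the block (all named above, and it changed no other call of a member), 3 with doublet removal, 3 with halved and 2 with doubled gates, and 1 with 10% of the profile removed. That removal moved the fold of 10 called results by over 1.5 times, all away from 0, and doubled gates that of 1.

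Counts of genes called over all genes moved most inside the mesenchyme. For epicardial and septum transversum-like cells the 183 calls became 672 with DESeq2, 949 with no filter, 2240 with the organoid as a block, 831 with doubled gates, 61 with 10% of the profile removed and 64 with halved gates. For collagen-high against collagen-low cells the 25 calls became 262 with DESeq2, 719 with no filter, 537 with the block, 393 with doubled gates and 16 with predicted doublets removed. For cycling cells the 2807 calls became 4707 with the block. The cause was not tested. For epicardial and septum transversum-like cells the higher and lower calls were 121 and 62 and became 297 and 375 with DESeq2 and 939 and 1301 with the block. The split of higher and lower calls against endoderm was 2098 and 1610 and became 1786 and 2421 with DESeq2, where the median of all genes was 0.02 instead of 0.24. In cycling cells it was 1479 and 1328 and became 1491 and 830 with 10% of the profile removed, 1616 and 668 with halved and 1198 and 677 with doubled gates. With 1 organoid left out no residual degrees of freedom remain, so those values carry no test. Depth limits the endodermal values most, with 83 and 15 cells.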

Other observations

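The 4054 and 4890 cells that passed no gate, with medians of 4255.5 and 4286 UMIs, had LUM and DCN. LUM stood at 537 and 113 CPM and DCN at 174 and 28.1 CPM in them, against 520.1 and 239 CPM and 119.9 and 47.6 CPM in the gated mesenchyme. A UMI of LUM was found in 40.4% and 14.6% of these cells. HAPLN1 stood at 443 and 445 CPM and HSPG2 at 91.6 and 75.6 CPM. These cells entered no comparison.

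CHST15, which sulfates chondroitin chains, was higher in C1Q-positive than in C1Q-negative cells. It stood at 23.4 and 51.6 CPM in C1Q-positive and 3.95 and 3.42 CPM in C1Q-negative cells (3.27 ± 0.37, adjusted p = 4.95e-06), and UST, another sulfotransferase, at 81.7 and 82.6 against 23.9 and 27.4 CPM (1.74 ± 0.18, adjusted p = 1.13e-06). LYVE1 was at 26.5 and 30.4 CPM in C1Q-positive and at 0.395 and 0.977 CPM in C1Q-negative cells. The C1Q-negative sums held 7599316 and 2046275 UMIs, so few molecules lay behind their LYVE1 values, and the size of this difference is uncertain. SPOCK3, a secreted proteoglycan gene, stood at 28.4 and 14.3 CPM in venous-like and 1.36 and 1.69 CPM in arterial-like endothelium (-3.71 ± 0.45, adjusted p = 1.06e-05 for arterial-like against venous-like cells).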
